A study of Mus musculus with 24 samples.

Results

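The regions described here lie deep inside very long genes. A region of the deposited tables was taken when it stood on an autosome, wholly inside a protein-coding gene of at least 300 kb, 10 kb or more from both ends of that gene and not within 2 kb of the end of any other gene. The rule, applied with the RefSeq annotation of mm10, gave 2016 of the 53386 regions, in 264 of the 532 autosomal protein-coding genes of that length. Chromatin immunoprecipitation with sequencing for H3K9me2 (histone H3 dimethylated at lysine 9) and matching input libraries had been made from cardiac biopsies of C57BL6 mice aged 12 months. All 6 mice (numbers 17, 19, 22, 23, 27 and 30) had gone through ischemic preconditioning, 4 rounds of 5 min of coronary occlusion with 5 min of reperfusion each, and then 30 min of reperfusion. Each heart gave 1 biopsy of the area at risk, the muscle fed by the occluded artery, and 1 of the remote myocardium outside it, which makes 4 groups of 6 libraries. Both biopsies therefore come from preconditioned hearts, and sham-operated hearts were not analysed here. A biopsy is a mixture of cell types, so a level is an average over them.

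H3K9me2 is laid down mainly by the paired methyltransferases G9a and GLP and is a mark of silent chromatin that covers broad stretches, many of them at the nuclear periphery, rather than sharp peaks. Very long mammalian genes are largely intron. Many of them encode adhesion proteins, ion channels and receptors best known from neurons, while a smaller number, such as the genes of cardiac calcium and potassium channels, serve heart muscle.

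An inner start of a shorter transcript can lie deep inside a long gene, and 23 of the regions, in 18 genes, overlapped an annotated start window of RefSeq (GRCm38.p6, the assembly of mm10; 250 bases before to 50 after a start). In Itpr1, Agap1 and Cux1 the window is that of another gene (Gm44040, Gm41914 and Gm16599). The rule on ends of other genes had not removed these regions. The 250 bases before a start are given for 6 of the 23 regions. They were chosen after their values were seen, because they span regions below, near and above input. Each is written 5′ to 3′ on the transcript's strand, with every CG dinucleotide in capitals; CG reads the same on both strands and its matches cannot overlap. Over all 32851 start windows of the annotation the median was 6 CG in these 250 bases, and 92.1% held at least 1.
Zfhx3 (chr8:108714394-108714643, plus strand, 18 CG): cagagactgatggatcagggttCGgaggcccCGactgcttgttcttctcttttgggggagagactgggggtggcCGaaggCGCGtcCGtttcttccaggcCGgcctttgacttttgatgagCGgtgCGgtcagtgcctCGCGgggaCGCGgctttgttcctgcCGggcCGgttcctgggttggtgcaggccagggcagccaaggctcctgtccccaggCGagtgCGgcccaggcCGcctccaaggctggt
Iqsec1 (chr6:90716530-90716779, minus strand, 11 CG): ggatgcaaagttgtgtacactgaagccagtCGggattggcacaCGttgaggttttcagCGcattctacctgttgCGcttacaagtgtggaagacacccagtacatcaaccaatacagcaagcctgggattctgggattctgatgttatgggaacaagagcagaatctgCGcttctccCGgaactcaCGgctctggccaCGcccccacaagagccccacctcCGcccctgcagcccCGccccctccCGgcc
Pde10a (chr17:8801495-8801744, plus strand, 21 CG): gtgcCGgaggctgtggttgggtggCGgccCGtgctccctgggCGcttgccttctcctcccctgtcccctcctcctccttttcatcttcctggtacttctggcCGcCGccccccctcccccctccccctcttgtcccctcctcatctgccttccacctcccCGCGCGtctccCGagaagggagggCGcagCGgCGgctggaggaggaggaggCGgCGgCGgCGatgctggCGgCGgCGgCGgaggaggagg
Cacna1c (chr6:119108496-119108745, minus strand, 48 CG): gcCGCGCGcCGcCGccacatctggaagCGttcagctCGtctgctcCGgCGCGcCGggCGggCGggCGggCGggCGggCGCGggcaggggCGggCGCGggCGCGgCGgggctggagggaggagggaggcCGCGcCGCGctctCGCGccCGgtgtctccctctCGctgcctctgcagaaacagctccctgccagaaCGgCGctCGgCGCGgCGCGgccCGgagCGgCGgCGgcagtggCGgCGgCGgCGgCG
Slc4a4 (chr5:88887010-88887259, plus strand, 44 CG): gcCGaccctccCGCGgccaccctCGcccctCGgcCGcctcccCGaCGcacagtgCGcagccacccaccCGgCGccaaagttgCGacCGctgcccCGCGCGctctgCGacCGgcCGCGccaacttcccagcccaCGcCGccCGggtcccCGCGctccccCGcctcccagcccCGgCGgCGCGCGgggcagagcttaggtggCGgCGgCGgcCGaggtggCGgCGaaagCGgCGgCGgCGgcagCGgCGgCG
Kalrn (chr16:34514028-34514277, minus strand, 9 CG): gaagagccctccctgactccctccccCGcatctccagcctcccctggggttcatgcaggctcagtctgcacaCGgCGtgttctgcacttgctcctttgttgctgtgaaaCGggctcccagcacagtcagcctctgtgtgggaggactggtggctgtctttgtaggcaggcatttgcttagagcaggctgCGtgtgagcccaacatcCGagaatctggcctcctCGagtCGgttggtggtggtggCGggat

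The 2016 regions together spanned 5271 kb, from 200 to 13200 bases each with a median of 2400. They were spread unevenly over the genes. The median gene held 3 and 80 genes held 1, while the 24 genes with 20 or more held 848 of the regions. Gse1, which encodes a coiled-coil protein of a histone deacetylase complex, had 73, the most of any gene. All 19 autosomes were represented, from 223 regions in 20 genes on chromosome 4 to 9 in 4 genes on chromosome 19. Of the regions 1551 overlapped no other listed region, 380 were partly covered by another, and 85 were wholly covered by another and held no reads. After the filter on low counts 1747 were tested in the area at risk and 1738 in remote myocardium. Gene lengths ranged up to 2271 kb, with a median of 427 kb. Long genes without such a region were not analysed here. Among them were Ryr2, the ryanodine receptor of heart muscle, Slc8a1, the cardiac sodium-calcium exchanger, and the neuronal adhesion gene Csmd1.

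Counts in all listed regions lay between 416683 and 1196368 per H3K9me2 library of the area at risk and between 443261 and 981763 in remote myocardium. Input libraries ranged from 1286383 to 2478668 and from 1405503 to 1770520. The deep regions of long genes received 20415 to 50543 and 22066 to 45514 reads in the H3K9me2 libraries of the area at risk and the remote myocardium. Chromatin counts do not measure RNA, so regions in marker genes of cell types show no cell shares and do not check the labelled tissue. Between the H3K9me2 libraries of the biopsies edgeR called 0 regions in each marker list, for cardiomyocytes (7 tested), fibroblasts (5), endothelium (21), mural cells (11), immune cells (3) and neuronal and glial cells (36). Against input, 11.3% of all regions tested were higher and 12.3% lower in the area at risk, and 20.5% and 20% in remote myocardium. Whether a marker list differs from these shares was not tested. Cardiomyocyte marker genes had 0 of 16 regions higher and 5 lower in the area at risk and 0 higher and 9 lower in remote myocardium. Fibroblast markers had 1 and 4 lower of 7, with none higher. Endothelial markers had 3 higher and 4 lower of 25 in the area at risk and 2 and 4 in remote myocardium. Mural markers had 3 higher and 2 lower of 15 and then 4 and 3, and immune markers 1 and 1 of 5 and then 2 and 2. Neuronal and glial markers had 9 higher and 1 lower of 39 and then 16 and 4 of 40; most of these regions belong to Rbfox3, itself a long gene.

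H3K9me2 libraries placed more of their reads in the deep regions of long genes than their inputs did, in every mouse and in both biopsies. In the area at risk these regions took 4.22%, 4.79% and 5.25% of the counts (lowest, median and highest of 6 H3K9me2 libraries) against 3.65%, 3.88% and 3.96% of input. In the remote myocardium the shares were 4.64%, 4.79% and 5.24% against 3.69%, 3.78% and 3.84%. In neither biopsy did the H3K9me2 and input libraries overlap. The log2 ratio of the 2 shares averaged 0.31 (SD 0.08, n = 6) in the area at risk and 0.36 (SD 0.04, n = 6) in remote myocardium. By mouse it was 0.36, 0.42, 0.31, 0.21, 0.26 and 0.28 in the area at risk for mice 17, 19, 22, 23, 27 and 30, and 0.34, 0.35, 0.37, 0.45, 0.34 and 0.33 in the remote myocardium. Mouse 23 thus had the lowest value of the area at risk and the highest of the remote myocardium. Its H3K9me2 library of the area at risk was the deepest of the group, and the 3 deepest libraries there (mice 23, 27 and 30) had the 3 lowest ratios; the part of depth in this was not tested.

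The same position rule applied to shorter genes gave smaller ratios. In genes of 100 kb to under 300 kb the ratio averaged 0.12 (SD 0.02, n = 6) in the area at risk and 0.14 (SD 0.01, n = 6) in remote myocardium. In genes under 100 kb it ranged from -0.02 to 0.03 and from -0.03 to 0.01. The lowest mouse of the long genes, at 0.21, stood above the highest of the 100 to 300 kb genes, at 0.15.

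**Figure D1:**
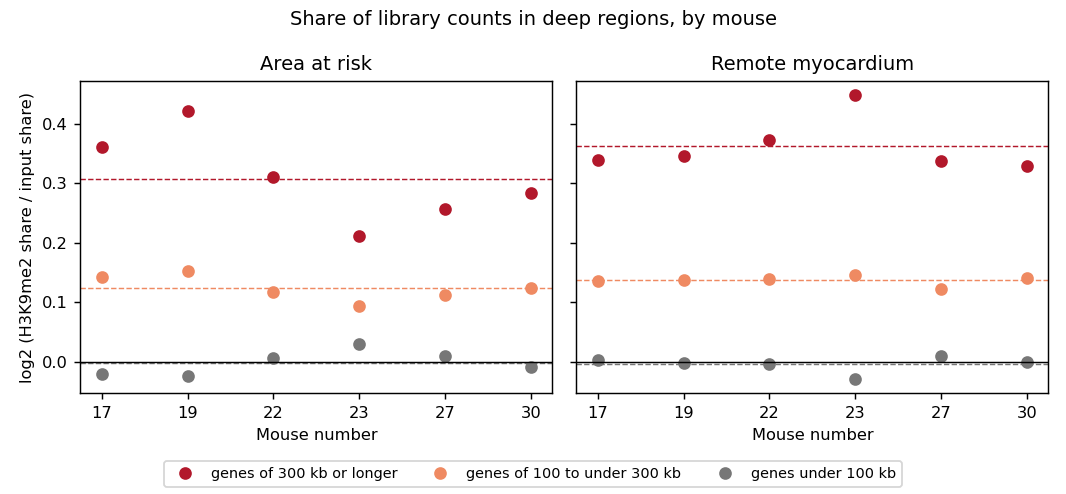
Log2 ratio of the share of counts in deep regions, H3K9me2 over input (y axis), for each of 6 mice (x axis) in the area at risk (left) and the remote myocardium (right). Points are single mice, coloured by gene length, and dashed lines are means of 6; the points of genes of 300 kb or longer run from 0.21 to 0.45 and lie above those of the shorter genes in every mouse.

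Region by region, the question was how many of these stretches carry more H3K9me2 than input. At a false discovery rate (FDR, the Benjamini-Hochberg adjusted p of edgeR's quasi-likelihood test over all regions) under 0.05, 459 of 1747 were higher in the area at risk and 48 lower. Of all 40928 regions tested in that contrast 11.3% were called higher and 12.3% lower, against 26.3% and 2.75% here. In the remote myocardium 802 of 1738 were higher and 71 lower, that is 46.1% and 4.09%, against 20.5% and 20% of all 40767 regions tested. The median log2 fold change over input was 0.32 and 0.39 here and 0.01 over all regions in either biopsy. Both biopsies together called 405 regions higher and 34 lower, and none in opposite directions. The 405 are 88.2% of the higher calls of the area at risk and 50.5% of those of the remote myocardium; over all regions the shares were 81.6% and 45.3%, with 3785 called higher in both. Whether these shares differ was not tested.

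Deep regions of shorter genes had smaller shares of higher calls. In genes of 100 kb to under 300 kb 13.3% of 4560 regions were higher in the area at risk and 24.7% of 4531 in remote myocardium, with median log2 fold changes of 0.13 and 0.15. In genes under 100 kb the higher calls made up 7.59% and 15.2%, with medians of 0.01 and -0.00. Regions of long genes that did not meet the position rule, being nearer to an end of the gene or of another gene, had 68 higher and 27 lower of 344 in the area at risk and 104 and 31 of 343 in remote myocardium. Their medians were 0.19 and 0.21. Reads per kb of regions that overlap no other were similar in input (a median of 172 for deep regions of long genes and 176 over all regions, summed over the 12 input libraries), whereas H3K9me2 gave 97.7 and 78.8.

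**Figure D2:**
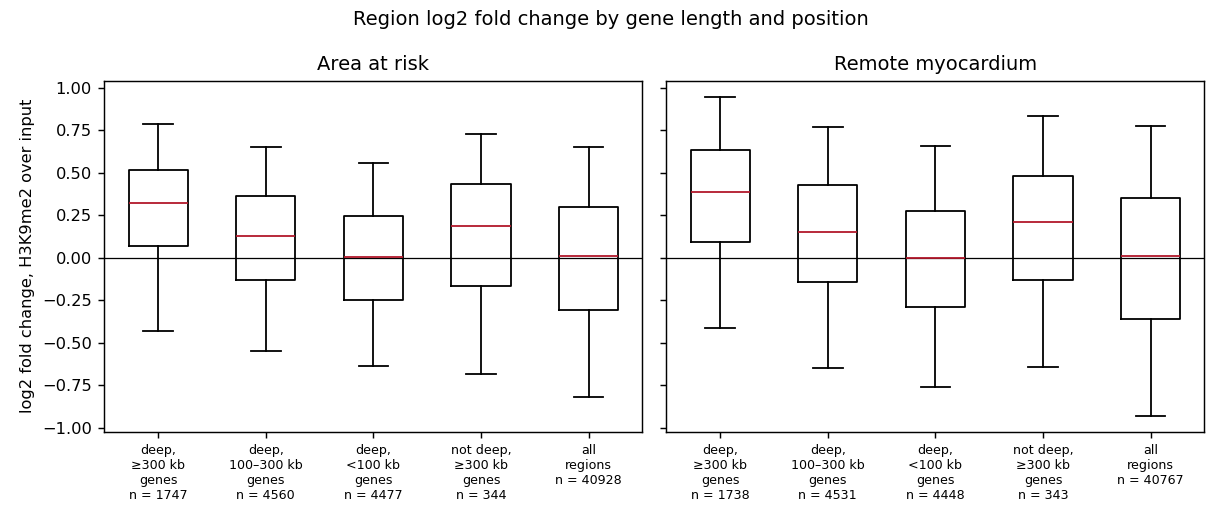
Log2 fold change of H3K9me2 over input per region (y axis) in the area at risk (left) and the remote myocardium (right), by gene length and position; boxes span the 25th to the 75th percentile, red lines are medians and whiskers the 5th and 95th percentiles, with the number of tested regions under each box. Deep regions of genes of 300 kb or longer have medians of 0.32 and 0.39, against 0.01 for all regions.

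Regions of 1 gene share their chromatin, so counts were also summed over the deep regions of each gene, giving 1 value per gene. Most long genes lay above input, 237 of 249 (95.2%) in the area at risk and 236 of 247 (95.5%) in remote myocardium. Over all genes with deep regions 65.5% and 66.1% did, and 78.6% and 80.2% of genes of 100 to under 300 kb. In the area at risk 177 of 249 tested long genes were higher than input and 4 lower, against 25.5% higher and 7.99% lower among all 3205 genes with deep regions (33.5% in either direction). In the remote myocardium 207 of 247 were higher and 4 lower, against 37.7% and 14% of all 3200 (51.7% in either direction). The median log2 fold changes of long genes were 0.46 and 0.56, and 0.14 and 0.17 over all genes. Long genes also had smaller errors, with a median SE of 0.13 and 0.10, against 0.15 and 0.13 over all genes. The part of this in the shares called was not tested. In both biopsies 172 genes were higher and 3 were lower, Gse1, Dst and Oxr1, the last with 1 region that passed the filter through its inputs. Just inside the limit of 300 kb, 38 of 62 genes of 300 to 350 kb were higher in the area at risk with a median of 0.40. Just outside it, 45 of 84 genes of 250 to under 300 kb were higher, also with a median of 0.40. In the remote myocardium 51 of 60 and 61 of 84 were higher, with medians of 0.49 and 0.44. The share of higher genes was larger on the longer side of the limit in both biopsies, and that difference was not tested.

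**Figure D3:**
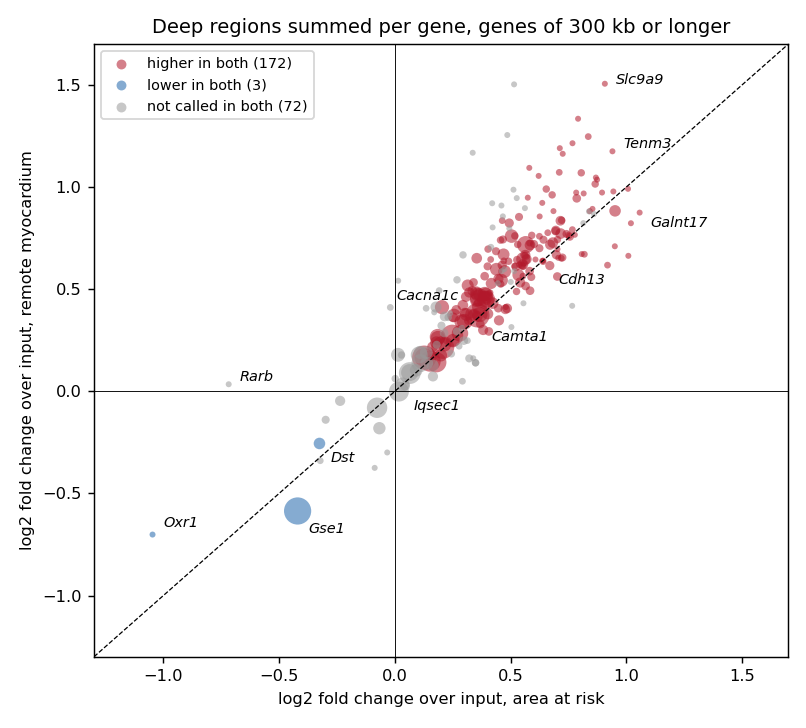
Log2 fold change of H3K9me2 over input in the area at risk (x axis) and in the remote myocardium (y axis) for the 247 long genes tested in both, from counts summed over each gene's deep regions. Larger points have more regions, red and blue mark the 172 genes higher and the 3 lower in both biopsies at FDR under 0.05, grey the rest, and the dashed line is equality; the values of the 2 biopsies come from the same mice.

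Gse1 (chromosome 8, 120228501 to 120581383) had the most listed regions of the long genes. Of these 44 were tested in both biopsies, against 53 in Camta1. Gse1 stood below input along most of its length. Its 73 regions held 960, 1016 and 1190 CPM (counts scaled to the library total and its TMM factor; lowest, median and highest of 6 libraries) in H3K9me2 of the area at risk and 1275, 1360 and 1572 in input. Remote myocardium had 841, 949 and 1036 against 1340, 1432 and 1475. All H3K9me2 libraries lay below all inputs in both biopsies. The gene's log2 fold change was -0.42 (SE 0.05, edgeR adjusted p 5.67e-07) and -0.59 (SE 0.04, adjusted p 1.17e-27). Of its regions 20 of 47 tested were lower in the area at risk, and 26 of 45 in the remote myocardium, where 1 was higher. Among deep regions called in both biopsies with at least the median abundance of tested regions, the 5 lowest were all in Gse1. The region at 120277000 to 120281399, 50.7 kb from the start of the gene, held 19.9, 24.6 and 39.8 CPM in the area at risk against 29.3, 42.5 and 49.5 in input. Remote myocardium had 11.6, 14.9 and 23.3 against 36.5, 42.4 and 45.9, a log2 fold change of -1.38 (SE 0.17).

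Dst and Oxr1 were the other long genes lower in both biopsies. Dst (chromosome 1, 33907888 to 34308662) encodes dystonin, a linker of cytoskeletal filaments, and had 11 regions. Its H3K9me2 libraries held 126, 148 and 152 CPM against 148, 179 and 222 of input in the area at risk, where the groups overlapped, and 134, 145 and 162 against 164, 172 and 189 in the remote myocardium, where they did not. The log2 fold changes were -0.33 (SE 0.09, edgeR adjusted p 0.00783) and -0.26 (SE 0.07, adjusted p 0.00209). Oxr1 (chromosome 15, 41447482 to 41861051), a gene of protection against oxidative damage, rests on 1 region of 1.2 kb. It held 4.14, 7.18 and 10.3 CPM against 11.5, 14.7 and 16.8 in the area at risk (log2 fold change -1.05, SE 0.29, edgeR adjusted p 0.00658). Remote myocardium had 0, 6.1 and 13.1 against 9.96, 12.2 and 13.8 (-0.70, SE 0.30, adjusted p 0.0389), and the groups overlapped. That second call was lost when any of mice 19, 22, 23 or 27 was left out. In each biopsy Oxr1 passed the filter on low counts through its inputs, the higher group, so its lower calls are no support.

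A group of genes with many deep regions stayed close to input. Iqsec1, an exchange factor for ARF GTPases with 38 regions, lay at 0.02 (SE 0.04) and -0.00 (SE 0.04), with 691, 709 and 779 CPM against 683, 712 and 732 in the area at risk. Ttc28, a tetratricopeptide protein of cell division with 40 regions, lay at -0.08 and -0.08 (SE 0.04 each, edgeR adjusted p 0.13 and 0.0745). Rere, a nuclear receptor coregulator with 17 regions, lay at 0.03 and 0.03 (SE 0.06 each). Msi2, an RNA-binding regulator of translation with 46 regions, lay at 0.06 and 0.09 (SE 0.04 each; edgeR adjusted p 0.212 and 0.0458); the second value passed, but not when any mouse other than 30 was left out or without TMM. In all of these the H3K9me2 and input libraries overlapped in both biopsies.

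The calcium channel gene Cacna1c (chromosome 6, 118587240 to 119197384), which encodes the pore of the cardiac L-type channel, was higher than input in both biopsies. Its 21 regions held 463, 600 and 708 CPM against 418, 442 and 485 in the area at risk, where the lowest H3K9me2 library, of mouse 23, fell among the inputs. Remote myocardium had 541, 590 and 661 against 437, 462 and 475, without overlap. The log2 fold changes were 0.37 (SE 0.07, edgeR adjusted p 0.000116) and 0.38 (SE 0.05, adjusted p 2.06e-11).

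Kcnq1, the channel of the slow delayed rectifier potassium current, had 27 regions and lay at 0.39 (SE 0.05) and 0.44 (SE 0.04), with no overlap of the groups in either biopsy. Cdh13 (chromosome 8, 118140017 to 119324929) encodes T-cadherin, an adiponectin-binding receptor of heart and vessel. Its 28 regions held 737, 960 and 1091 CPM against 556, 627 and 670 in the area at risk and 873, 960 and 1134 against 561, 592 and 620 in remote myocardium, with no overlap. Its log2 fold changes were 0.57 (SE 0.06) and 0.72 (SE 0.04), and 16 and 23 of 28 regions were higher. Prdm16, a zinc finger regulator of transcription with 34 regions, lay at 0.13 (SE 0.04, edgeR adjusted p 0.0294) and 0.17 (SE 0.04, adjusted p 0.000196); the first call was lost when any of mice 19, 22, 27 or 30 was left out.

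Of the heart and muscle list as a whole 14 genes had deep regions. In the area at risk 7 of 13 tested were higher and none lower, with a median log2 fold change of 0.37; in the remote myocardium 7 of 12 were higher and none lower, with a median of 0.40. These shares, like those of every list below, can be read against the 177 of 249 and 207 of 247 higher calls and the medians of 0.46 and 0.56 over all long genes.

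Adhesion and guidance genes known from synapses had 18 members with deep regions, of 55 long genes on the list. Of 14 tested, 11 were higher in the area at risk and 13 in remote myocardium, with none lower and medians of 0.67 and 0.77. Sdk1 (chromosome 5, 141241497 to 142215586), a synaptic adhesion protein, had 9 regions with 206, 292 and 357 CPM against 126, 172 and 236 of input in the area at risk, where the groups overlapped. Remote myocardium had 247, 308 and 351 against 163, 176 and 194, where they did not overlap. The log2 fold changes were 0.72 (SE 0.11) and 0.77 (SE 0.07), and 6 and 8 of 9 regions were higher. Tenm4, a teneurin of cell recognition with 16 regions, lay at 0.50 (SE 0.08) and 0.76 (SE 0.06) with no overlap in either biopsy. Cdh4, a classical cadherin with 15 regions, lay at 0.46 and 0.54.

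Ion channel and neurotransmitter receptor genes gave 14 higher of 15 tested in each biopsy, none lower, with medians of 0.53 and 0.67. Grik4, a kainate receptor subunit with 12 regions, lay at 0.47 (SE 0.07) and 0.67 (SE 0.06), and its groups did not overlap. The exception was Cacna1a, a neuronal calcium channel pore with 14 regions, at 0.09 and 0.10; with regions kept only from 50 kb inward it lay at 0.33 and 0.43 and passed in both biopsies. Transcription and chromatin genes gave 16 and 17 higher of 21, none lower, with medians of 0.35 and 0.47. Signalling genes gave 15 and 20 higher of 22, none lower, with medians of 0.31 and 0.42; those with the most regions were Arhgap26, a GTPase-activating protein, with 57 at 0.13 and 0.16, and Prkce, protein kinase C epsilon, with 51 at 0.21 and 0.21 (SE 0.04 each). Genes of common fragile sites and cell maintenance gave 11 and 13 higher and 1 lower, Dst, of 16, with medians of 0.42 and 0.47.

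The highest genes had few regions. The 8 at the top of the genes called in both biopsies included Slc9a9, an endosomal sodium-proton exchanger, Galnt17, a Golgi glycosyltransferase, and Tenm3, a teneurin, with 1 region each. The Galnt17 region (chromosome 5, 131194200 to 131196399) held 21.5, 32.4 and 59.2 CPM against 10.1, 13.5 and 32.1 of input in the area at risk and 26.4, 30.2 and 50.6 against 15.2, 17.9 and 19.9 in remote myocardium. The groups overlapped in the area at risk, where mouse 19 was highest, and did not in the remote myocardium, where mouse 23 was. The gene's log2 fold changes were 1.06 (SE 0.25, edgeR adjusted p 0.00217) and 0.87 (SE 0.17, adjusted p 1.01e-05). Slc9a9 lay at 0.91 (SE 0.30) and 1.51 (SE 0.22) and Tenm3 at 0.94 (SE 0.20) and 1.17 (SE 0.16), and with such errors these 3 genes cannot be put in order. Fhit, a diadenosine hydrolase gene at a common fragile site, had 2 regions at 0.84 (SE 0.26) and 1.25 (SE 0.18). Slc9a9 missed the threshold in the area at risk without mouse 19, 27 or 30, and Fhit without mouse 19.

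By the same measure the highest regions were single stretches of Kcnma1, Dab1, Galnt17, Rgs6 and Tenm3. The Kcnma1 region (chromosome 14, 23966400 to 23971399), in the gene of the large-conductance calcium-activated potassium channel, held 40.5, 68.0 and 105 CPM against 31.8, 35.8 and 42.3 in the area at risk. Remote myocardium had 53.7, 80.5 and 99.7 against 27.4, 36.6 and 54.0. The groups overlapped slightly in both. Its log2 fold changes were 0.86 (SE 0.15) and 1.04 (SE 0.12).

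Whether long genes differed among themselves was tested by scaling each library to its summed count in the deep regions of all long genes, so that 0 is the pool, which includes the gene itself. In the area at risk 47 of 248 long genes lay above the pool and 19 below; among all 3193 genes with deep regions 3.91% lay above it and 27.7% below. In the remote myocardium 103 of 247 were above and 32 below, against 10.4% and 39.1% of all 3196. In both biopsies 42 were above and 18 below. The pool weights genes by their reads, and the genes with the most regions had the lowest medians over input. The median long gene accordingly lay above the pool, at 0.16 and 0.20, with 73.0% and 74.5% of long genes above 0. Cdh13 lay above by 0.26 and 0.36 on the log2 scale (edgeR adjusted p 0.000974 and 6.84e-11) and Sdk1 by 0.41 and 0.41 (adjusted p 0.0013 and 7.85e-08). Gse1 lay at -0.72 and -0.94, Iqsec1 at -0.29 and -0.36 (adjusted p 0.000577 and 1.99e-10) and Msi2 at -0.24 and -0.27. Camta1, Cacna1c, Kcnq1 and Zfhx3 passed on neither side. Between the biopsies the order of genes was much alike: across the 247 genes the log2 fold changes over input had a Pearson's r of 0.83 and a Spearman's rho of 0.85, with the same mice behind both.

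Genes with fewer listed regions had higher median values. The median log2 fold change was 0.63 and 0.86 in genes with 1 region, 0.45 and 0.49 in genes with 5 to 9 and 0.20 and 0.24 in genes with 20 or more. The shares called higher did not run the same way, at 53.8% and 81.0% of tested genes with 1 region, 90.0% and 92.0% with 5 to 9 and 70.8% and 83.3% with 20 or more. Across the 247 genes the mean of the 2 log2 fold changes and the number of regions per 100 kb had a Pearson's r of -0.50 and a Spearman's rho of -0.56, and gene length gave 0.25 and 0.21. These are descriptions over genes, which share libraries. Which criterion put a region into the deposited tables is not given in the sources used here; a gene with 1 region gives its sum few reads, and its part in the pattern was not tested. Input per kb and log2 fold change had r = -0.38 over the 1508 regions that overlap no other and were tested in both, and the same input counts stand in both quantities. Among 105 genes with 5 or more regions tested in both biopsies, the SD of gene means was 0.22 and 0.25 and the SD of regions within a gene 0.29 and 0.32, beside a median SE of 0.20 and 0.18 for 1 region.

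**Figure D4:**
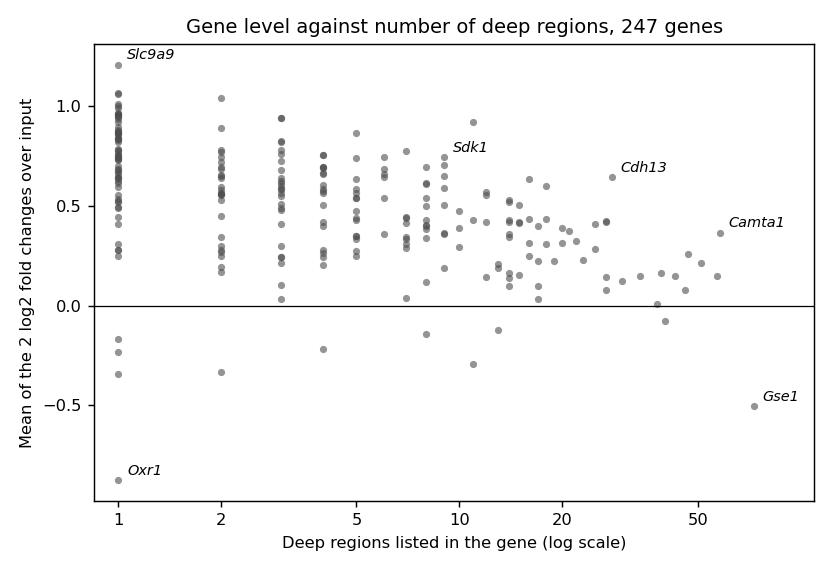
Mean of the log2 fold changes over input in the area at risk and the remote myocardium (y axis) against the number of deep regions listed in the gene (x axis, log scale), 1 point for each of 247 long genes. Genes with 1 region reach from Oxr1, below input, to Slc9a9 at the top, and genes with 20 or more lie lower, with Gse1 the only one of the labelled genes below 0 among them.

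Position within the gene went with smaller shifts. Regions 10 to 25 kb from the nearest end had medians of 0.23 in each biopsy, and those 200 kb or more from it 0.41 and 0.47; the percentages called higher were 18.4% and 37.0% in the first class and 33.8% and 54.5% in the second. Where the strand was known (199 genes), the stretch from 0.8 of the gene's length to its end had medians of 0.21 and 0.25, and that from the start to 0.2 had 0.33 and 0.43. Over 1728 regions distance to the nearest end and the mean log2 fold change had r = 0.14. Width gave r = -0.15.

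Profiles along 4 genes, chosen after their values were seen, are plotted by distance from the start. Camta1, a calmodulin-binding transcription activator with 58 regions (chromosome 4, 151059523 to 151861768), was higher than input in both biopsies, at 0.36 and 0.37 (SE 0.04 each), with no overlap of the groups. Its single regions spanned -0.46 to 0.86 in the area at risk, -0.55 to 0.93 in remote myocardium, and the lowest values in both lay 788.7 kb from the start, the last region before its end. In Gse1 5 of 44 regions tested in both biopsies lay above 0 in the area at risk and 3 in remote myocardium, and none of the 10 beyond 250 kb did in either.

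Zfhx3, a homeobox and zinc finger transcription factor tied to atrial fibrillation, had unequal levels along its length. Its 22 regions as a sum lay at 0.30 (SE 0.06, edgeR adjusted p 0.000563) and 0.34 (SE 0.05, adjusted p 3.34e-09). Split at 250 kb, a distance chosen after the values were seen, the 3 tested regions before it lay at 0.85 to 0.96 in the area at risk and 0.81 to 1.26 in remote myocardium, and all passed in both. The 15 beyond ran from -0.57 to 0.50 and from -0.97 to 0.65. The lowest of the remote myocardium, at chromosome 8 from 108713600 to 108715999, holds the inner start whose sequence is given above. It had 7.44, 11.0 and 24.7 CPM against 18.6, 25.5 and 31.3 of input there (log2 fold change -0.97, SE 0.21, edgeR adjusted p 7.04e-05), and -0.39 (SE 0.22) in the area at risk. The groups overlapped in both biopsies.

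**Figure D5:**
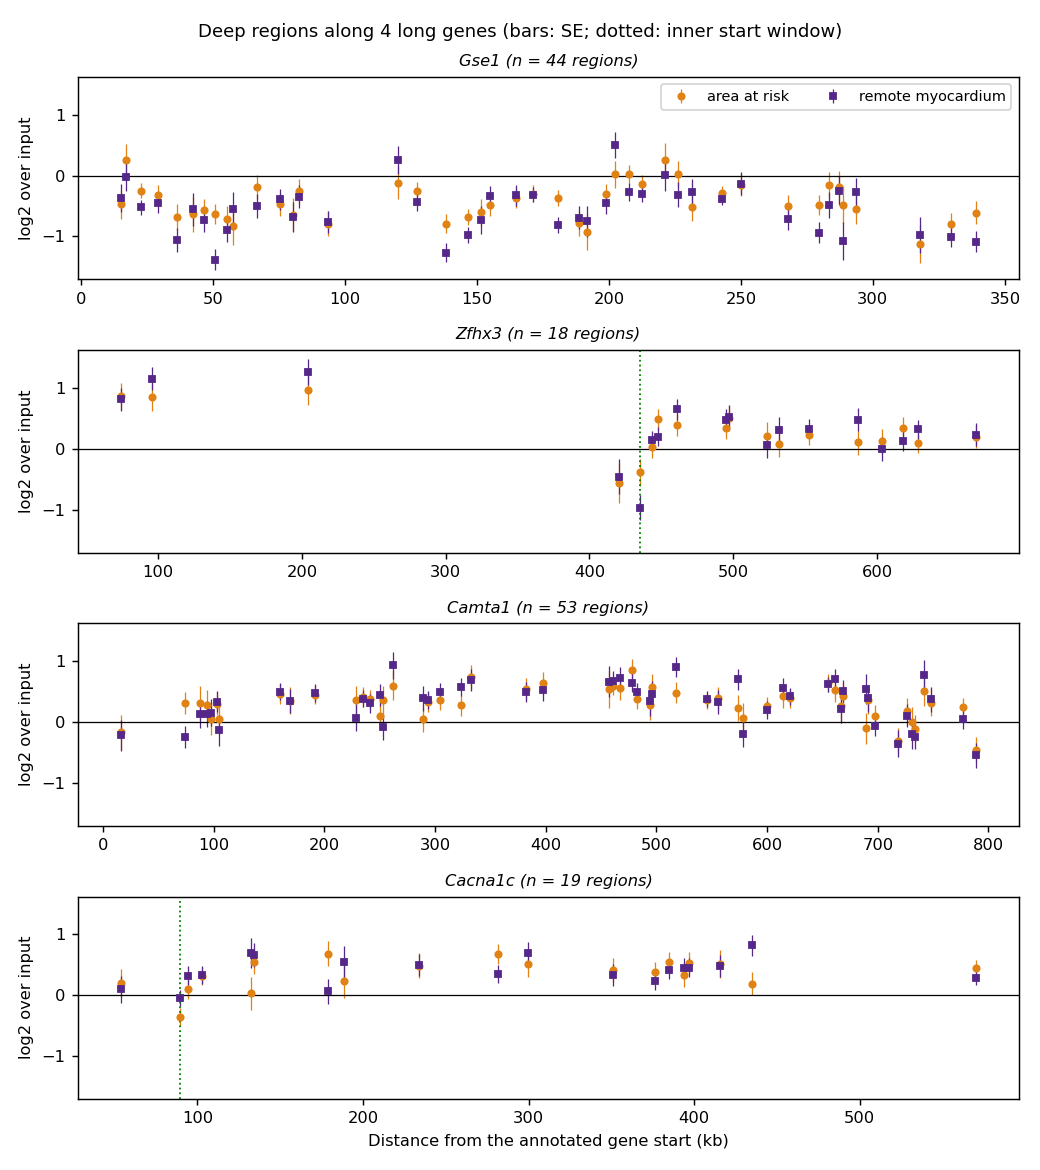
Log2 fold change of H3K9me2 over input per deep region (y axis, bars are SE) against distance of the region's centre from the annotated start of the gene in kb (x axis), for Gse1, Zfhx3, Camta1 and Cacna1c; circles are the area at risk, squares the remote myocardium, and dotted lines mark regions that overlap an annotated inner start window. Gse1 lies below 0 nearly throughout, and Zfhx3 falls from values of 0.81 to 1.26 in its first 250 kb to its lowest near the inner start.

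The regions over inner starts, including those over starts of other genes in Itpr1, Agap1 and Cux1, had lower medians than the rest. In the area at risk 1 of 16 tested was higher and 2 lower, with 7 above 0 and a median log2 fold change of -0.19. In the remote myocardium 2 of 17 were higher and 3 lower, with 8 above 0 and a median of -0.05. Those 2 included the Rbfox3 region, at 1.49 (SE 0.31), which passed the filter on low counts in the remote myocardium only. There its inputs held 3.29, 4.03 and 4.99 CPM (lowest, median and highest) and its H3K9me2 libraries 8.93, 11.1 and 14.5. It passed through the H3K9me2 group, where it is high, so its call is no support. Regions without such a window gave 458 higher and 46 lower of 1731 with a median of 0.33, and 800 and 68 of 1721 with a median of 0.39. This split was made after values of these data had been seen and is a description only. The Iqsec1 region (chromosome 6, 90715000 to 90716599), whose inner start has 11 CG, was lower in both biopsies at -0.87 (SE 0.27) and -0.76 (SE 0.25). The Pde10a region (chromosome 17, 8799600 to 8803799), in the gene of a cyclic nucleotide phosphodiesterase, was lower in the remote myocardium, at -0.46 (SE 0.19, edgeR adjusted p 0.0449), and lay at -0.32 (SE 0.21) in the area at risk.

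The 6 starts were chosen after their values were seen, so no relation to the CG count is read from them. The Cacna1c region (48 CG) lay at -0.36 (SE 0.15) and -0.05 (SE 0.14), and the Slc4a4 region (44 CG), in the gene of a sodium bicarbonate cotransporter, at 0.39 (SE 0.19) and -0.12 (SE 0.17), none of them past the threshold. The Kalrn region (9 CG), in the gene of the guanine nucleotide exchange factor kalirin, was higher in the area at risk at 0.37 (SE 0.14, edgeR adjusted p 0.0378) and lay at 0.21 (SE 0.12) in the remote myocardium. Around the Cacna1c start, the other 18 regions of that gene tested in both biopsies lay above 0 in each.

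Between the biopsies no deep region of a long gene and no long gene passed. In H3K9me2 edgeR called 0 of 1529 regions (0% of all 31526 tested), with 66 at an unadjusted p under 0.05 (1272 over all regions). DESeq2 called 0 of 1921 with 28 (676 over all 48082). The median edgeR log2 fold change, area at risk over remote myocardium, was -0.03, and 669 of the 1529 regions (43.8%) lay above 0, against 50.3% of all regions. Inputs gave 0 of 1768 (0% of all 42603), with 43 at an unadjusted edgeR p under 0.05 (1157 over all regions). DESeq2 gave 0 of 1921 with 29 (707 over all 48105). Each biopsy's input was taken into account by the interaction of antibody and biopsy over 24 libraries. For this term edgeR called 0 of 1787 regions (0% of all 42445) with 65 at an unadjusted p under 0.05 (1728 over all regions). It called 0 of 250 genes (0% of all 3235) with 12 (127 over all genes). DESeq2 was not run for this term. The medians were -0.06 over regions and -0.07 over genes, against 0.01 and -0.02 over all regions and all genes. 40.0% of regions and 26.8% of genes lay above 0, against 50.9% of all regions and 45.6% of all genes. The summed ratio was lower in the area at risk than in the remote myocardium in 4 of 6 mice, by a mean difference of -0.05 (SD 0.11), with mice 17 and 19 the other way. Mouse 23 had the widest gap, -0.24, and without mouse 23 the median over regions was 0.03 in H3K9me2 and -0.02 with input taken into account.

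The genes of smallest unadjusted p in the input-corrected difference were Gse1, Tenm4, Snx29, Nedd4l and Grik4, and none passed (edgeR adjusted p 0.999 each). Gse1 was less far below input in the area at risk, by 0.18 (SE 0.07, unadjusted edgeR p 0.00962, not exact). Tenm4 lay at -0.26 (SE 0.10), Snx29, a sorting nexin, at -0.20 (SE 0.08), Nedd4l, a ubiquitin ligase of ion channels, at -0.23 (SE 0.10) and Grik4 at -0.20 (SE 0.09). By region, the Gse1 stretch at 120277000 had the smallest p among those higher in H3K9me2 of the area at risk, at 0.78 (SE 0.23, edgeR adjusted p 0.999) and in 5 of 6 mice. A Vps13d region, in the gene of a lipid transfer protein, followed at 0.70 (SE 0.23) and the Gse1 stretch at 120364000 at 0.50 (SE 0.21). The input of the Vps13d region was also higher in the area at risk, by 0.32 (SE 0.15). With input taken into account its difference was 0.38 (SE 0.27). Among those with the lower value in the area at risk, a region of Nfia, a transcription factor gene, had the smallest p (chromosome 4, 97702800 to 97703999), at -0.92 (SE 0.25, edgeR adjusted p 0.999). It held 8.84, 12.4 and 15.2 CPM (lowest, median and highest mouse) in H3K9me2 of the area at risk and 18.9, 20.7 and 40.2 in that of remote myocardium, and the groups did not overlap. The median input was 11.2 and 8.54 CPM, and with input taken into account the difference was -1.31 (SE 0.36, edgeR adjusted p 1.0). An Sdk1 region came next at -0.74 (SE 0.21), with the area at risk lower in 5 of 6 mice. The third was an Elmo1 region (chromosome 13, 20558600 to 20560599), in a gene of phagocytosis and cell migration, at -0.65 (SE 0.20). It held 12.4, 25.5 and 31.1 CPM in the area at risk and 29.0, 32.7 and 42.5 in remote myocardium, the area at risk being below in 6 of 6 mice while the groups overlapped.

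By the FDR of the authors' deposited tables, 407 of these 2016 regions exceeded input in the area at risk and 45 were lower at an FDR under 0.05, and 746 and 67 in remote myocardium. These are 20.2% and 2.23% of them in the area at risk, against 7.8% and 9.45% of all 53386 regions in the authors' deposited table. In the authors' deposited table for remote myocardium they are 37.0% and 3.32%, against 14.2% and 14.3%. The authors' deposited tables of the contrasts between biopsies held none of them at that FDR.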

How the data were processed

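The labels put 24 libraries of 6 mice into 4 groups, and 2x101-base paired reads were made from 12 PCR cycles, per the labels' protocols. The authors deposited 4 tables with whole-number read counts per region of build mm10 for 12 libraries each; per the file headers the tables also hold a log2 fold change, a log2 CPM, a p-value and an FDR, as edgeR names them. Bowtie2 2.2.2, SICER 1.1 and edgeR are named without roles per the submitters' processing notes, and how regions were listed, reads counted or duplicates treated is not given in the sources used here. The authors' log2 values and p-values were read for their own calls only.

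Counts were fitted here, over all regions of a contrast, with edgeR 4.0.16 (R 4.3.3): TMM, filterByExpr, the two-sided quasi-likelihood test and an FDR of 0.05. Counts were also summed per gene over its deep regions, with the library sizes and TMM factors of the region table. CPM are counts over the library total times its TMM factor. The SE of a log2 fold change was worked back from the test, as its absolute value over the square root of the F statistic. The steps were tested on simulated data. DESeq2 1.42.0, the mouse as a block, other scalings, filters, gene lengths and distances and each mouse left out were the alternatives. Mouse numbers name the same animal in all groups, so they pair the samples; deviations from the group means, compared within a mouse, had an r of -0.16 to 0.06 for H3K9me2 of both biopsies, -0.00 to 0.17 and 0.01 to 0.08 for H3K9me2 with input, and -0.06 to 0.04 for both inputs. The main fits held no term for the mouse. Their p-values rest on the spread between the libraries of a group, each from another of the 6 animals. The pairing entered only the fits with the mouse as a block. Libraries are scaled to reads in listed regions, so a change alike in all regions cannot be seen.

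Named genes were the 8 highest and 8 lowest of those called alike in both biopsies, the 10 with the most regions, the 5 of smallest p between biopsies and the 4 with the most regions of each gene list; others are said to be chosen after their values were seen, or illustrate a count. Regions were named by the 5 highest and 5 lowest and, between biopsies, the 3 of smallest p on each side. The members, the lists (heart and muscle, synaptic adhesion, ion channels, transcription, signalling, fragile sites and maintenance, and the marker lists) and the tests were chosen with earlier results of these data known. Exons could not be placed, since the gene table used gives no exons, so regions are called deep by distance alone.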

Additional observations from a re-analysis of the deposited data

Results flagged for a closer look

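In 79 groups of 6 mice, the summed share and the 39 named genes in each biopsy except Oxr1 in remote myocardium, where the H3K9me2 count of mouse 22 was 0 and no ratio could be formed, 1 mouse stood apart from the others in 9. Chance would mark about 1 in 20 groups if they were independent. They share mice and libraries, and the summed share includes the genes, so the 9 cannot be set against that rate. In the area at risk the log2 ratio of H3K9me2 over input was 0.946 in mouse 19 for Ank3, an ankyrin of the membrane skeleton, with the next mouse at 0.458. It was 0.585 in mouse 19 for Camta1, next to 0.343. It was 0.554 in mouse 17 for Atxn1, a transcriptional corepressor, next to 0.281. For Sdk1 mouse 22 was low at 0.316, the next being 0.703.

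All 5 in remote myocardium were values of mouse 23, each the highest of its group. The summed share of deep regions had a log2 ratio of 0.448, the next mouse being at 0.373. Galnt17 lay at 1.567 beside 0.803, Zfhx3 at 0.578 beside 0.333, Rbfox3, a neuronal splicing factor, at 0.451 beside 0.251, and Agap1, an ARF GTPase-activating protein, at 0.336 beside 0.114. The same mouse had the lowest summed ratio of the area at risk.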

How the results depend on the processing

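Reads counted in listed regions limit the precision, with a median SE of 0.20 and 0.18 for the log2 fold change of a deep region over input in the area at risk and the remote myocardium. With the mouse as replicate block, 536 regions were higher and 54 lower in the area at risk, and 823 and 75 in the remote myocardium, 189 and 212 long genes were higher, and 0 regions and 0 genes passed between biopsies; of the genes named, Mad1l1 and Nedd4l passed in the area at risk and Ttc28 (-0.08) in the remote myocardium with the block only. Of 300 values recomputed for whole sets 271 kept their direction and stayed within 1.5 times of the main count or 1 SD of the main value. Among the 271 were counts of 0 regions between biopsies. Those could only stay 0 at FDR 0.01 or in another class of gene length or distance, so they do not speak to stability.

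At FDR 0.01 the area at risk had 251 regions higher and 18 lower, the remote myocardium 37 lower, and 25 long genes were above the pool in the area at risk. DESeq2 called 27 and 43 regions lower and 2 genes lower in the area at risk. With genes of 200 kb or longer, a larger set, 691 regions were higher and 114 lower in the area at risk and 1218 and 191 in the remote myocardium, with a median of 0.31 there, and 293 and 365 genes were higher and 12 and 15 lower. With genes of 500 kb or longer, a smaller set, the regions were 179 and 4, then 284 and 5 with a median of 0.48, and the genes 62 and 68 higher and 1 and 0 lower. At 50 kb or more from both ends 47 regions were lower in the remote myocardium.

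Leaving out 1 mouse at a time gave 303 to 507 higher and 29 to 42 lower regions in the area at risk, the fewest higher without mouse 19 and the fewest lower without mouse 27, and 684 to 735 and 53 to 64 in the remote myocardium. Long genes higher numbered 141 to 184 and 201 to 211. The median between H3K9me2 of the biopsies ran from -0.0665 (without mouse 19) to 0.0339 (without mouse 23), above 0 only there. Genes near input changed sign. With 1 mouse left out, Iqsec1 lay between -0.0075 and 0.0328 in the area at risk, and between -0.0343 and 0.0203 in remote myocardium. There it also lay at 0.0027 under median-of-ratios factors, 0.0034 with no filter, 0.0087 in DESeq2, 0.0039 with regions that overlap no other and 0.0296 from 50 kb inward. Rere, likewise, lay between -0.0046 and 0.0483 and between -0.0175 and 0.0811. The cause was not tested.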

Other observations

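Among deep regions of long genes the shares called differed by width class, and the medians ran otherwise. Regions under 2 kb had 15.9% called higher in the area at risk and 41.4% in remote myocardium, and those of 2 to 3 kb 28.4% and 50.8%. Regions of 4 kb or more were 30.0% and 36.8% higher, and 5.26% and 12.1% lower. The median log2 fold changes were 0.33 and 0.45 under 2 kb and 0.34 and 0.44 at 2 to 3 kb. At 4 kb or more they were 0.21 and 0.22. The part of read number in the shares called was not tested. By gene length the median log2 fold changes were 0.40 and 0.48 at 300 to 400 kb, 0.47 and 0.59 at 400 to 600 kb, 0.41 and 0.52 at 600 to 1000 kb and 0.59 and 0.81 above 1000 kb, the last with 20 genes tested. Rarb, a retinoic acid receptor gene with 1 deep region over an inner start, was lower than input in the area at risk at -0.72 (SE 0.28) and lay at 0.03 (SE 0.25) in the remote myocardium; the difference, -0.75 (SE 0.38), did not pass (edgeR adjusted p 0.999). Vps13d, a gene of lipid transfer between organelles, was lower in the remote myocardium at -0.18 (SE 0.06) and lay at -0.07 (SE 0.05) in the area at risk.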
